A study of Homo sapiens with 4 samples.

Results

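Mitochondrial ribosomal protein genes encode the proteins of the ribosome inside mitochondria, and their RNA was compared between MV4-11R and MV4-11. They were taken by name, as genes whose only platform symbol was MRPL or MRPS with a number and an optional letter A to C, using for each gene the probe set with the highest mean over the arrays. This gave 73 genes among 18417 tested, 48 of the large subunit (MRPL) and 25 of the small subunit (MRPS). The split is by name, so MRPS18A and MRPS30, whose proteins sit in the large subunit, are counted with the small subunit genes. A further 4 genes of such a name, MRPL51, MRPS6, MRPS24 and MRPS28, shared a probe set with another gene and were left out. MV4-11R, labelled as drug-resistant with low EZH2, was grown from MV4-11 over 3 months under rising amounts of the kinase inhibitor PKC412 (midostaurin). Its parent MV4-11, labelled as drug-sensitive with high EZH2, is a human acute myeloid leukaemia line with an MLL fusion and a FLT3 receptor kinase that carries an internal tandem duplication. Each line had 2 Affymetrix arrays, and the labels say neither that the arrays came from separate cultures nor whether MV4-11R is a single clone. The p-values therefore rest on a spread between arrays that may be technical only.

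The mitochondrial ribosome translates the few messages of mitochondrial DNA, all of which encode subunits of the respiratory chain and ATP synthase. Its proteins are made in the cytosol from nuclear genes scattered over the chromosomes and are imported. Many descend from bacterial ribosomal proteins and keep the bacterial number, and others arose in the mitochondrial lineage. Leukaemia cells that rely on respiration depend on this ribosome, and inhibitors of mitochondrial translation act on acute myeloid leukaemia cells in experimental models.

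Median log2 signal over all probe sets was 6.78 and 6.75 on the MV4-11R arrays, against 6.77 and 6.75 on the MV4-11 arrays. EZH2 RNA read 9.90 and 9.29 in MV4-11R, against 9.75 and 9.74 in MV4-11, and overlapped. Its difference was -0.14 (95% interval -0.64 to 0.35, limma adjusted p = 0.734). The interval is wide and protein was not measured here, so these values do not settle the low and high EZH2 of the labels. Of 8 measured myeloid markers, 7 in MV4-11R and 8 in MV4-11 lay above 6.28, the 95th percentile of 361 olfactory receptor genes used as a guide to background. Of 11 measured markers of other cell types, 7 lay above it in each line, among them the B cell marker CD79A and the epithelial marker KRT18, while the B cell marker MS4A1 and the epithelial marker EPCAM lay below it in both lines. Values are log2 signals on the authors' RMA scale, differences are MV4-11R minus MV4-11, and a gene is said to have risen or fallen at a limma adjusted p under 0.05 over all genes tested.

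Most mitochondrial ribosomal protein genes read higher in MV4-11R. A rise passed for 22 of the 73 genes and a fall for 1, and 50 did not pass. Among all genes 15.1% passed, with 7.92% rising and 7.13% falling. The shares among the 9208 genes above the median level, where 68 of the 73 genes lie, were 22.2%, 11.9% and 10.3%. Of these 68 genes 17 rose (25%) and 1 fell, 61 were higher, and their median difference was 0.36. Both MV4-11R arrays read above both MV4-11 arrays for 53 of them and below for 6. The other rises, in MRPL54, MRPS33, MRPS9, MRPL13 and MRPS18C, were of genes below that level. The difference was above 0 for 66 of the 73 genes, against 51.5% of all genes and 54.4% of those above the median level. Both MV4-11R arrays read above both MV4-11 arrays for 58 genes and below them for 6, where 29.6% and 26% of all genes did so (38.2% and 30.9% of those above the median level). The median difference was 0.38, with the middle of the genes between 0.14 and 0.53 (quartiles), whereas the median over all genes was 0.0073 and that over genes above the median level 0.040. Averaged over the 73 genes, the log2 signal was 9.51 and 9.50 on the MV4-11R arrays, against 9.14 and 9.16 on the MV4-11 arrays.

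The number passing depended on every array. It was 9 without MV4-11R replicate 1, 15 without MV4-11R replicate 2, 9 without MV4-11 replicate 1 and 9 without MV4-11 replicate 2, when 9.23%, 13.5%, 8.62% and 8.89% of all genes passed. With every probe set of the table tested on its own, 8 of the 73 genes passed, when 4.52% of all probe sets did. With the replicate number as a block, 31 passed, when 19.8% of all genes did. The median difference with an array left out was 0.349 to 0.382 for large subunit genes and 0.312 to 0.408 for small subunit genes.

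**Figure D1:**
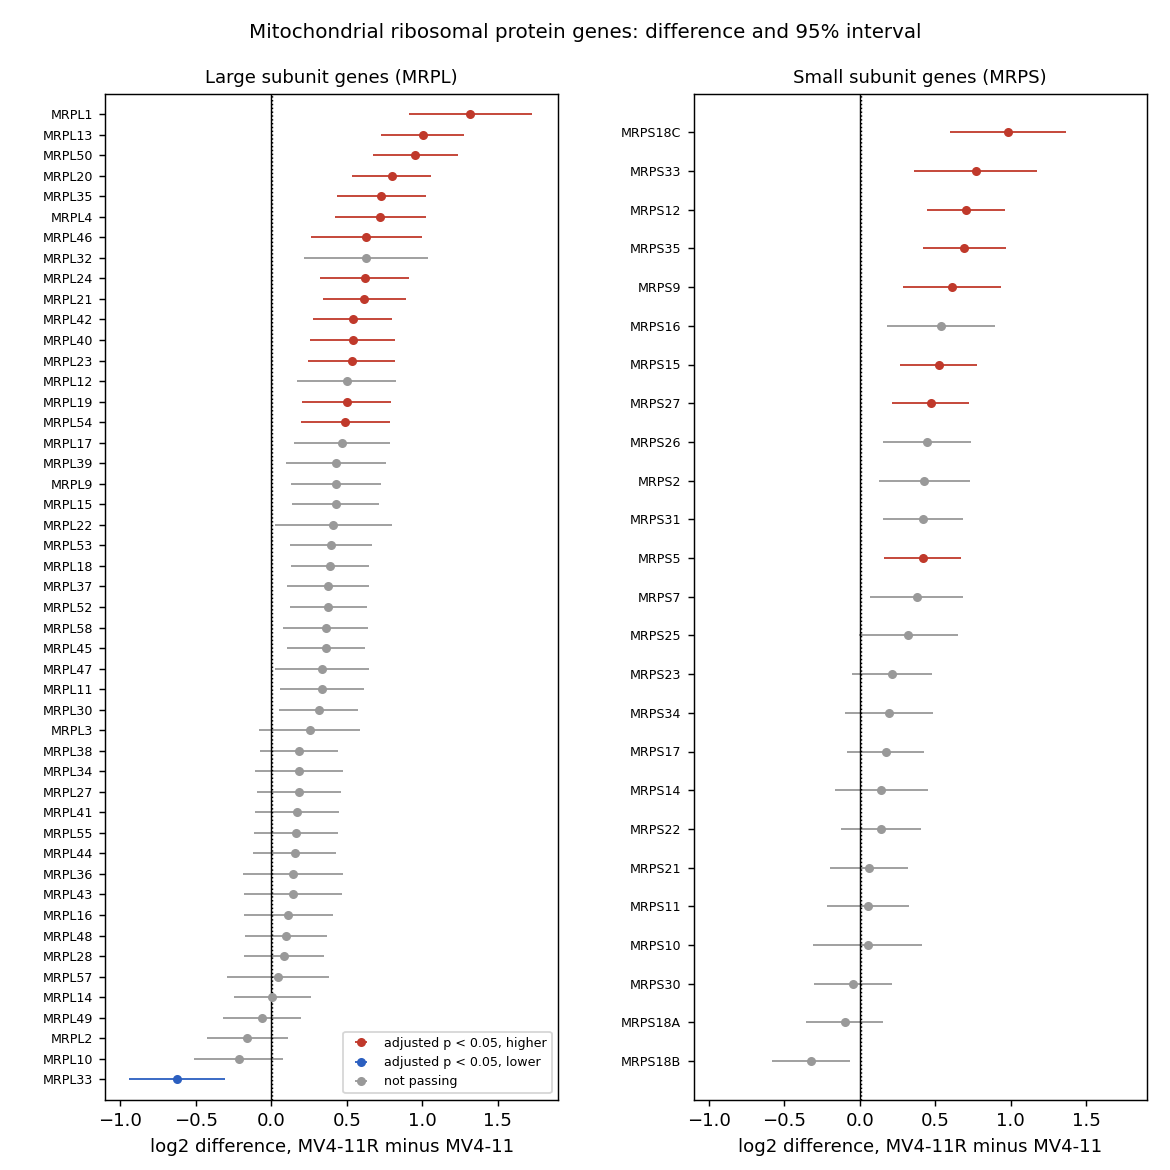
Log2 difference (MV4-11R minus MV4-11, horizontal axis) of each of the 48 large subunit genes (left) and 25 small subunit genes (right), with limma's 95% interval as a bar. Red points passed with a positive difference (22 genes), the blue point with a negative one (MRPL33), and grey points did not pass. The dotted line is the median of all genes, 0.0073.

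The promoters of 7 genes that the results turn on are given here, 200 bases before the start and 30 from it on, read 5′ to 3′ on the gene's strand from RefSeq's GRCh38.p14. They are the largest rise (MRPL1), 3 other rises that held with any array left out (MRPS18C, MRPL20 and MRPS12), the only fall (MRPL33), and the back-to-back pair MRPL46, which passed, and MRPS11, which did not. Capitals mark CCGGAAG, a core that ETS factors such as GABPA bind, or AAGATGGC, part of the YY1 site. The NRF1 site was searched too, all on both strands, and none of these 7 windows holds it.
MRPL1, chr4:77862630-77862859, plus strand: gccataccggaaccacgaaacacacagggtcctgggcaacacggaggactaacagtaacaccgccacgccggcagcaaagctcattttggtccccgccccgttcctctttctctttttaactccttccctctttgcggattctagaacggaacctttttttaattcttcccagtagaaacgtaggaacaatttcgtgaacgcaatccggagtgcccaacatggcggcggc
MRPS18C, chr4:83455858-83456087, plus strand: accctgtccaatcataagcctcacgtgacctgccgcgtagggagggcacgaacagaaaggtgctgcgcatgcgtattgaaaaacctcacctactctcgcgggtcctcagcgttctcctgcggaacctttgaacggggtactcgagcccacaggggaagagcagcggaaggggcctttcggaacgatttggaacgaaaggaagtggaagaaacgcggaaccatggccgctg
MRPL20, chr1:1407264-1407493, minus strand: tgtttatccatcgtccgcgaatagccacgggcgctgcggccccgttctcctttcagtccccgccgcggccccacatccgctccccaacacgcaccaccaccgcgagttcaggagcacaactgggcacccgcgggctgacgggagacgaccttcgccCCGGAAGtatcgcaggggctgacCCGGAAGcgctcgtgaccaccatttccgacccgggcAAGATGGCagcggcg
MRPS12, chr19:38930744-38930973, plus strand: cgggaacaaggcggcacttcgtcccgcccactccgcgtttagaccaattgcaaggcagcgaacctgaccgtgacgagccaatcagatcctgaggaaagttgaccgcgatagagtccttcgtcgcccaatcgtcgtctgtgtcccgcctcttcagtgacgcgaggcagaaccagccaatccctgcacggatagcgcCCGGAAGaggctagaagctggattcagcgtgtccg
MRPL46, chr15:88467359-88467588, minus strand: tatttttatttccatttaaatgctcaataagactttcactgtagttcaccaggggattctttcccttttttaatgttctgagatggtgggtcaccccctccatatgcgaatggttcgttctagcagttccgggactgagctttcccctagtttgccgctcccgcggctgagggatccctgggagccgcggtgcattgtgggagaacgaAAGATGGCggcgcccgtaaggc
MRPS11, chr15:88467508-88467737, plus strand: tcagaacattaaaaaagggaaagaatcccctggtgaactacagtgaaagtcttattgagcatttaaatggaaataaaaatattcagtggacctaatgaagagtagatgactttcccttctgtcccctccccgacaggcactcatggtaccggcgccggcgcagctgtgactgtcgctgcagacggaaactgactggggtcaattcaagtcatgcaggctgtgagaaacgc
MRPL33, chr2:27771519-27771748, plus strand: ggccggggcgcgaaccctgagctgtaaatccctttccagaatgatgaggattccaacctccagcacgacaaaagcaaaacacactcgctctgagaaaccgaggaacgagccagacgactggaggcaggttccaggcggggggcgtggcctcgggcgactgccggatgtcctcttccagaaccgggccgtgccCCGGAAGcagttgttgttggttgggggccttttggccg

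Among the 48 large subunit genes 14 passed as higher, 1 as lower and 33 did not pass, with a median difference of 0.38. Among the 25 small subunit genes 8 passed as higher, 0 as lower and 17 did not pass, with a median difference of 0.38. An unadjusted limma p under 0.05 was reached by 31 of the 48 large subunit genes, of which MRPL33 was lower. It was reached by 14 of the 25 small subunit genes, of which MRPS18B was lower, and by 5270 of the 18417 genes tested. Above the median level it was reached by 40 of the 68 genes of the family and by 3840 of all 9208 genes. The median over the large subunit genes was 9.59 and 9.60 in MV4-11R, against 9.24 and 9.26 in MV4-11. Over the small subunit genes it was 9.55 and 9.53 in MV4-11R, against 8.94 and 8.94 in MV4-11. Such a median can fall on different genes on different arrays, and the means did not show the wider small subunit gap. The mean was 9.57 and 9.58 against 9.19 and 9.23 for the large subunit, MV4-11R first. For the small subunit it was 9.39 and 9.34 against 9.02 and 9.04. The share that rose was 29.2% of large and 32% of small subunit genes by name, and the difference between them was not tested. Genes with a bacterial number (MRPL up to 36, MRPS up to 21) rose in 14 of 43 cases, with a median difference of 0.41. Those with a higher number rose in 8 of 30, with a median of 0.36.

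MRPL1, whose protein forms the mobile L1 stalk where spent tRNA leaves, had the largest difference. It read 8.38 and 8.02 in MV4-11R, against 7.02 and 6.74 in MV4-11, a 2.50-fold rise (log2 difference 1.32, SE 0.17, adjusted p = 0.00661). MRPL13, a core protein of the large subunit, read 7.14 and 7.27 in MV4-11R, against 6.22 and 6.18 in MV4-11 (2.004-fold, difference 1.003, SE 0.11, adjusted p = 0.00452). The arrays of the lines did not overlap for either gene, but MRPL13 in MV4-11 read below 6.28, the guide to background, which makes its fold inexact. MRPL50, a protein without a bacterial counterpart, read 10.26 and 10.37 in MV4-11R, against 9.30 and 9.43 in MV4-11 (1.94-fold, difference 0.95, SE 0.12, adjusted p = 0.00568). MRPL20, a homologue of a bacterial protein needed early in large subunit assembly, read 10.43 and 10.35 in MV4-11R, against 9.62 and 9.57 in MV4-11 (1.74-fold, difference 0.80, SE 0.11, adjusted p = 0.00804). These 4 genes passed in all 13 alternative fits, the 4 with an array left out included, with adjusted p up to 0.0352 when an array was left out.

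Some of the proteins lie along or around the tunnel by which the new chain leaves the ribosome, and of these MRPL4, MRPL23 and MRPL24 rose. The genes named here for that region are not all of its genes, and those not passing were picked after their values were seen. MRPL4, which reaches into the tunnel, rose 1.65-fold (difference 0.72, adjusted p = 0.0156). MRPL23, at the tunnel's exit, rose 1.45-fold (0.53, adjusted p = 0.0339), and MRPL24, also at the exit, rose 1.54-fold (0.62, adjusted p = 0.0230). A further 2 genes of the exit region, MRPL17 (difference 0.47, adjusted p = 0.0633) and MRPL22 (0.41, adjusted p = 0.153), and MRPL45 (0.36, adjusted p = 0.0738), which ties the ribosome to the inner membrane, did not pass, though the arrays of the lines did not overlap for them. MRPL46 and MRPL40, both of the central protuberance that faces the small subunit, rose 1.55-fold (0.63, adjusted p = 0.0424) and 1.45-fold (0.54, adjusted p = 0.0297), while MRPL38, of the same part, was higher by 0.18 (adjusted p = 0.333). The other large subunit rises were MRPL35 (1.66-fold), MRPL21 (1.53-fold), MRPL42 (1.45-fold), MRPL19 (1.41-fold) and MRPL54 (1.40-fold). The call on MRPL35 held with 3 of the 4 arrays left out in turn and was lost with the other, its difference ranging from 0.62 to 0.83. The call on MRPL4 was lost without MV4-11R replicate 1 (adjusted p = 0.0537) or MV4-11 replicate 2 (0.0599). Calls on MRPL42, MRPL40, MRPL19 and MRPL54 were lost whichever array was left out, and those on MRPL21, MRPL23, MRPL24 and MRPL46 passed with 1 of the 4 arrays left out and were lost with each of the others.

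The stalk that recruits translation factors gave mixed values. MRPL12, the factor-binding stalk protein that also binds mitochondrial RNA polymerase, was higher by 0.50 (SE 0.13, adjusted p = 0.0583), with 9.81 and 9.54 in MV4-11R, against 9.24 and 9.11 in MV4-11. MRPL10, which anchors MRPL12, was lower by 0.22 (SE 0.12, adjusted p = 0.319), with 8.19 and 8.31 in MV4-11R, against 8.38 and 8.55 in MV4-11. Neither passed, although the arrays of the lines did not overlap for either gene. MRPL11, at the stalk's base, was higher by 0.33 (adjusted p = 0.113). Of the proteins closest to the catalytic centre, MRPL3 was higher by 0.26 (adjusted p = 0.301) and MRPL2 lower by 0.16 (adjusted p = 0.427), and neither passed. MRPL32, which in mouse and yeast must be cut by a mitochondrial protease before it enters the ribosome, was higher by 0.63 (adjusted p = 0.0577). MRPL58, a peptide-releasing enzyme built into the large subunit, was higher by 0.36 (adjusted p = 0.0943). MRPL37, among the brightest genes of the family, was higher by 0.38 (adjusted p = 0.0753).

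MRPL33, a small protein with a bacterial counterpart, was the only gene of the family that fell. It read 8.39 and 8.31 in MV4-11R, against 9.10 and 8.84 in MV4-11, a 1.54-fold fall (log2 difference -0.62, SE 0.13, 95% interval -0.94 to -0.31, adjusted p = 0.0283). All 4 values lie well above the background guide, and the arrays of the lines did not overlap. Genes around it on chromosome 2 had a median difference of 0.10, opposite in sign, and with that shift removed its difference was -0.72 (adjusted p = 0.0191). The call held without MV4-11 replicate 2 (adjusted p = 0.0374) and was lost without any other array (adjusted p from 0.0660 to 0.121).

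In the small subunit MRPS18C had the largest difference. Its protein is the counterpart of bacterial S18, and MRPS18A and MRPS18B are its paralogues, which sit elsewhere in the ribosome, MRPS18A in the large subunit. MRPS18C read 6.87 and 6.84 in MV4-11R, against 5.67 and 6.08 in MV4-11 (1.98-fold, difference 0.98, SE 0.16, adjusted p = 0.0128). Both MV4-11 values were under the background guide, so the fold is not exact. MRPS18A read 11.14 and 11.14 in MV4-11R, against 11.23 and 11.25 in MV4-11, a difference of -0.10 with a 95% interval of -0.35 to 0.15 (adjusted p = 0.625). MRPS18B read 10.42 and 10.35 in MV4-11R, against 10.73 and 10.68 in MV4-11 (difference -0.32, interval -0.58 to -0.062, adjusted p = 0.103). Differences between the paralogues were not tested, and MRPS18A and MRPS18B, neither of which passed, both lie on chromosome 6, where neighbouring genes were also lower.

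MRPS12, a protein of the decoding centre, read 8.50 and 8.46 in MV4-11R, against 7.76 and 7.80 in MV4-11 (1.63-fold, difference 0.70, SE 0.11, adjusted p = 0.0109). It and MRPS18C passed in all 13 alternative fits. MRPS33 and MRPS35, which have no bacterial counterpart, rose 1.70-fold (0.77, adjusted p = 0.0316) and 1.62-fold (0.69, adjusted p = 0.0133). The call on MRPS35 held with 3 of the 4 arrays left out in turn and was lost with the other, its difference ranging from 0.64 to 0.75. MRPS9, with a C-terminal tail that in bacteria touches the peptidyl tRNA, rose 1.53-fold (0.61, adjusted p = 0.0321), and MRPS15 rose 1.44-fold (0.52, adjusted p = 0.0250). The pentatricopeptide repeat protein MRPS27 rose 1.38-fold (0.47, adjusted p = 0.0343), and MRPS5, at the entry of the mRNA channel, rose 1.34-fold (0.42, adjusted p = 0.0473). The calls on MRPS15, MRPS27 and MRPS5 were lost whichever array was left out, and those on MRPS33 and MRPS9 passed with 1 of the 4 arrays left out. MRPS16, mutated in a fatal disease of mitochondrial translation, was higher by 0.54 (adjusted p = 0.0599), whereas MRPS22, another disease gene, was higher by 0.14 (adjusted p = 0.485). MRPS30, which despite its name belongs to the large subunit, had a difference of -0.046 (adjusted p = 0.847).

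**Figure D2:**
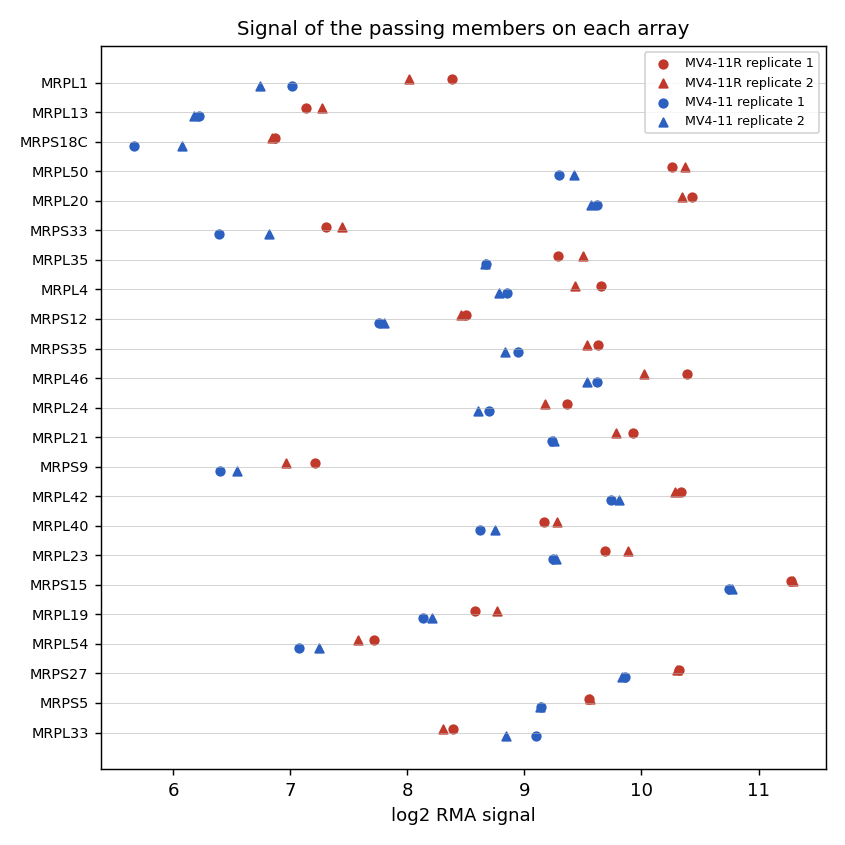
Log2 RMA signal (horizontal axis) of the 23 passing genes on each array, MV4-11R in red and MV4-11 in blue, with circles for replicate 1 and triangles for replicate 2. Both MV4-11R arrays lie to the right of both MV4-11 arrays for 22 genes and to their left for MRPL33. Signals of different genes come from different probes and are not comparable with each other.

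Copy number or other regional differences between the lines can move neighbouring genes together, so each gene was set beside its neighbours. The neighbours were up to 15 genes on either side on the chromosome with a level above the median of all genes, the family itself left out. Their median difference had a median of -0.0050 over the 73 genes, beside a median of 0.38 for the family itself. The gap between these medians was not tested. It ranged from -0.43 around MRPL14 and MRPS18A to 0.37 around MRPL13. Across the 73 genes, which share arrays and in places neighbours, a gene's difference correlated with that of its neighbours at r = 0.46 (Spearman's rho = 0.45), or at 0.35 (rho = 0.36) over the 67 genes outside chromosome 6.

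The family was lowest on chromosome 6. Its genes above the median level had a median difference of -0.17, and its 6 genes of the family had one of -0.047, against 0.40 for the 67 genes elsewhere. MRPL2 read 9.82 and 9.89 in MV4-11R, against 9.97 and 10.07 in MV4-11 (difference -0.16, adjusted p = 0.427). MRPS10 read 10.13 and 10.003 in MV4-11R, against 10.18 and 9.84 in MV4-11, and overlapped (difference 0.054, adjusted p = 0.878). MRPL14 read 9.37 and 9.39 in MV4-11R, against 9.38 and 9.38 in MV4-11 (difference 0.0055, adjusted p = 0.986). These and MRPS18A and MRPS18B had neighbours between -0.43 and -0.19. The sixth gene, MRPL18, whose neighbours had a median of 0.062, was higher by 0.39, with 11.18 and 11.19 in MV4-11R, against 10.84 and 10.76 in MV4-11 (adjusted p = 0.0622).

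The neighbours' median was taken off both MV4-11R arrays as a fixed number. All adjusted p-values after its removal therefore leave out its own uncertainty, though it comes from the same 4 arrays. With the neighbours' median removed, MRPL14 stood at 0.44 and passed (adjusted p = 0.0409, or 0.0853 with 30 neighbours either side). MRPS18A then stood at 0.33 (adjusted p = 0.0851), MRPS10 at 0.32 (0.207), MRPL2 at 0.081 (0.669) and MRPS18B at -0.13 (0.455). MRPL14 lies back to back with TMEM63B, their starts 240 bases apart. TMEM63B read 8.04 and 8.28 in MV4-11R, against 9.38 and 9.61 in MV4-11 (difference -1.33, SE 0.14, adjusted p = 0.00400), a value known when it was picked for mention.

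Other chromosomes showed shifts too. On chromosome 3 the neighbours of MRPL47, MRPL3 and MRPS22 lay at -0.34, -0.28 and -0.23, and these genes read 0.34, 0.26 and 0.14 higher without passing. With the shift removed, MRPL47 stood at 0.67 and passed (adjusted p = 0.0216). On chromosome 19 all 4 genes were higher and 3 rose, MRPL4, MRPS12 and MRPL54. Of the 769 genes above the median level on that chromosome, 602 were higher and 20.2% rose, with a median difference of 0.24. There the shift taken off left MRPS12 at 0.52 (adjusted p = 0.0260) and MRPL4 at 0.49 (0.0495, or 0.0504 with 30 neighbours either side), and MRPL54 at 0.29 no longer passed (0.164). MRPL13 on chromosome 8 stood at 0.63 after removal (adjusted p = 0.0186). On chromosome 20, MRPS26 read 9.06 and 8.87 in MV4-11R, against 8.55 and 8.49 in MV4-11 (difference 0.44, adjusted p = 0.0579), and stood at 0.22 after removal (0.270).

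Chromosome 13, where genes above the median level had a median of -0.64, carries 2 genes of the family. MRPS31 read 8.44 and 8.40 in MV4-11R, against 7.96 and 8.05 in MV4-11 (difference 0.42, SE 0.11, adjusted p = 0.0525). Its 15 nearest bright genes on either side had a median of -0.057 and its 30 nearest one of -0.47, so its place relative to the shifted stretch depends on how far one looks. MRPL57 read 7.67 and 7.54 in MV4-11R, against 7.41 and 7.70 in MV4-11, and overlapped (difference 0.045, adjusted p = 0.890). Over the whole family, removing the shift of 15 neighbours either side left 27 genes passing, 26 of them higher, when 15.1% of all genes passed. Genes gained were MRPL14, MRPL15, MRPL47, MRPL53, MRPL58 and MRPS31, and those lost were MRPL54 and MRPS27. With 30 neighbours either side 23 genes passed, when 14.6% of all genes did, and MRPL14, MRPL15, MRPL53 and MRPL58 did not pass (adjusted p from 0.0550 to 0.0853), nor did MRPL4. How far copy number enters these values was not tested.

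**Figure D3:**
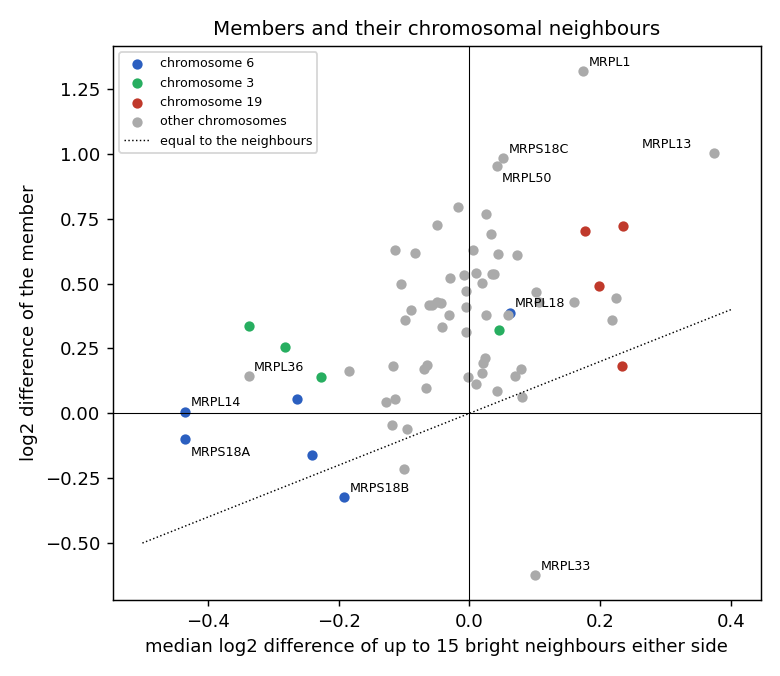
Log2 difference of each of the 73 genes (vertical axis) against the median log2 difference of its bright neighbours (horizontal axis), coloured by chromosome. Points above the dotted line exceed their neighbours. Of the 6 chromosome 6 genes, 5 lie to the left with neighbours between -0.43 and -0.19, and MRPL33 lies alone at the bottom at -0.62.

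Promoters were matched for 66 of the 73 genes. MRPL2, MRPL10, MRPL13, MRPL15, MRPL21, MRPL23 and MRPL35 had none in the table. In windows of 230 bases, CCGGAAG or its complement was found in 39.4% of these promoters, against 13.2% of 14237 promoters of all genes tested. AAGATGGC was found in 19.7%, against 3.03%, and the NRF1 site in 12.1%, against 8.42%. The ETS core was in 5 of 18 promoters of genes that rose and in 20 of 47 of those that did not pass, that is in 27.8% and 42.6%. MRPL20 holds the ETS core at 2 places and AAGATGGC at 1, and MRPS12 and MRPL33 hold the ETS core once each. In their printed windows MRPL1 and MRPS18C hold no exact match to the 3 motifs, and near matches were not counted. A match describes the letters and not a bound factor. The motifs do not overlap each other in the windows printed.

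Many of these genes have a start within 1000 bases of the start of a gene running the other way, which was so for 19 of the 66 (28.8%), against 12.4% of all genes with a promoter entry. MRPS12 and SARS2, the mitochondrial seryl-tRNA synthetase, start 181 bases apart, and both rose. SARS2 read 10.14 and 9.99 in MV4-11R, against 9.12 and 9.21 in MV4-11 (difference 0.90, SE 0.12, adjusted p = 0.00697). MRPS18C and the DNA helicase HELQ start 175 bases apart, and HELQ read 7.76 and 7.84 in MV4-11R, against 6.88 and 7.19 in MV4-11 (difference 0.77, SE 0.14, adjusted p = 0.0186). MRPL46 and MRPS11 start 320 bases apart, and the difference between them was not tested. MRPL46 read 10.39 and 10.02 in MV4-11R, against 9.62 and 9.53 in MV4-11, while MRPS11 read 11.33 and 11.21 in MV4-11R, against 11.26 and 11.17 in MV4-11, and overlapped (difference 0.054, interval -0.22 to 0.33). Over the 17 partners outside the family the median difference was 0.16, with 3 rising (SARS2, HELQ and the chaperonin gene TCP1 beside MRPL18) and 1 falling (TMEM63B). Among all genes 7.92% rose and 7.13% fell, and among those above the median level 11.9% and 10.3%. So small a count of partners was not tested against these shares. The 17 partners were taken by distance alone, and those named were picked from them after their values were seen.

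Other genes of mitochondrial gene expression were listed by role in 5 lists, each with a median difference above 0. The share that rose was 16.7% to 30.8% in these lists, where 7.92% of all genes and 11.9% of those above the median level rose, and no list was tested against other genes. A list of 6 measured genes was drawn up for ribosomal proteins with other names, and it includes MRPL58, already counted above, and KGD4. Of these 1 rose and 5 did not pass, with a median difference of 0.37. The riser was PTCD3, a pentatricopeptide repeat protein at the mRNA entry (10.63 and 10.56 in MV4-11R, against 9.99 and 10.13 in MV4-11, adjusted p = 0.0294). DAP3, a GTP-binding protein of the small subunit, was higher by 0.39 (adjusted p = 0.103). KGD4, once filed as MRPS36 and now assigned to a dehydrogenase complex, was higher by 0.34 (adjusted p = 0.185).

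Of 13 translation factors 4 rose, 0 fell and 9 did not pass, with a median of 0.27. The initiation factor MTIF2 rose 1.88-fold (0.91, SE 0.14, adjusted p = 0.0115) and the recycling factor MRRF 1.71-fold (0.77, SE 0.14, adjusted p = 0.0174). Of 25 assembly factors 7 rose, 0 fell and 18 did not pass, with a median of 0.29. RBFA, which helps mature the small subunit, rose 2.12-fold (1.08, SE 0.12, adjusted p = 0.00400), though its neighbours on chromosome 18 had a median of 0.51. FASTKD2, an RNA-binding protein of large subunit assembly, rose 2.02-fold (1.02, SE 0.11, adjusted p = 0.00424) with neighbours at -0.026. The number of assembly factors passing was 4 with the regional shift removed.

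Of 21 mitochondrial aminoacyl-tRNA synthetase genes, which charge tRNA with amino acids, 4 rose, 0 fell and 17 did not pass, with a median of 0.29. FARS2 (phenylalanine) rose 2.12-fold (1.08, adjusted p = 0.00440) and MARS2 (methionine) 1.95-fold (0.96, adjusted p = 0.00424). Of 16 genes of mitochondrial transcription and RNA handling 3 rose, 0 fell and 13 did not pass, with a median of 0.30. The RNA-degrading enzyme PNPT1 rose 2.22-fold (1.15, SE 0.12, adjusted p = 0.00366) and the elongation factor TEFM 1.93-fold (0.95, SE 0.17, adjusted p = 0.0180). TEFM read 5.92 and 6.39 in MV4-11, near the background guide, so its fold is not exact. Genes encoded in mitochondrial DNA were not analysed here.

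The ribosome of the cytosol gave smaller differences. Among 34 cytosolic ribosomal protein genes 1 rose, RPS21 on chromosome 20 (0.62, adjusted p = 0.0256, and 0.104 with the regional shift removed), 0 fell and 33 did not pass. Among all genes 7.92% rose, and 11.9% of those above the median level did. The median difference of the 34 genes was 0.11, with a range of -0.30 to 0.62, and 28 of them were above 0. Both MV4-11R arrays read above both MV4-11 arrays for 21 of the 34 and below them for 2. Of all genes 29.6% and 26% did so, and of those above the median level 38.2% and 30.9%. Most of these genes read brighter than the mitochondrial ones, such as RPL18 with means of 13.8 in MV4-11R and 13.7 in MV4-11. RPS21 was dimmer, with means of 9.02 and 8.40. The difference between the 2 ribosomes was not tested, nor was the part of signal level in it.

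**Figure D4:**
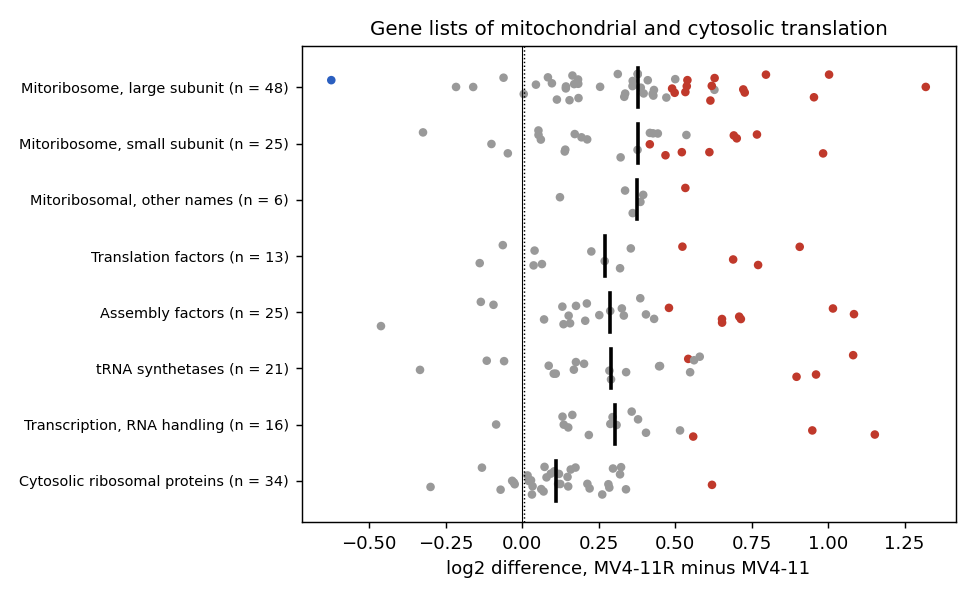
Log2 difference (horizontal axis) of each gene in the mitochondrial ribosome's subunits and in 6 related lists, with red for genes that rose, blue for the gene that fell and grey for genes that did not pass. Black bars are medians, which lie between 0.27 and 0.38 for the mitochondrial lists and at 0.11 for the 34 cytosolic ribosomal protein genes, and the dotted line is the median of all genes.

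Other features moved with the lines as well. Immediate early genes, switched on within minutes by stimuli or by handling, rose in 5 of 9 measured cases with a median of 0.73. The largest of these rises were FOSB (1.39) and JUN (1.12). JUNB and IER2, on chromosome 19 with neighbours at 0.38, no longer passed with the regional shift removed (limma adjusted p = 0.273 and 0.173). Among all genes 7.92% rose and 7.13% fell, and among those above the median level 11.9% and 10.3%. Of 8 myeloid markers 4 fell, with a median of -0.67, led by CSF1R (-1.73) and ANPEP (-1.18). The summed linear signal of the 8 myeloid markers was 13550 and 16736 in MV4-11R, against 18548 and 21227 in MV4-11. The summed linear signal of 11 markers of other cell types was 2664 and 3397 in MV4-11R, against 2126 and 2325 in MV4-11. Of these 11 markers 0 rose, 1 fell, KRT18 (-0.58, adjusted p = 0.0283), and 10 did not pass, with a median difference of 0.11. The brightest was PECAM1, which monocytic cells also express. It read 10.64 and 11.20 in MV4-11R, against 10.03 and 10.34 in MV4-11 (adjusted p = 0.0707). The higher sum in MV4-11R lay in PECAM1, and without that gene the summed signals of the lines overlapped. The part of these differences in the values of the ribosomal protein genes was not tested. In bulk RNA, a change in RNA per cell and a change in the mix of cells cannot be told apart.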

How the data were processed

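RNA of 2 MV4-11R and 2 MV4-11 samples was hybridised to 1-colour Affymetrix Human Gene 1.0 ST arrays. The deposited values are log2 signals that the authors made with RMA. The submitters' processing notes name Affymetrix Expression Console as the program, and versions are not given in the sources used here. Of 33297 probe sets, 19460 had 1 gene symbol in the platform annotation, 1754 had several and 12083 were not listed. The brightest probe set per symbol gave 18417 genes. RMA removes differences in overall RNA amount, so values are relative within an array, and the number of arrays limits the precision. Differences were tested with limma 3.58.1 in R 4.3.3 (lmFit and eBayes), Benjamini-Hochberg adjusted over all genes, after a test on simulated data. Gene order and promoters came from RefSeq (GRCh38.p14).

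The family and the gene lists were chosen with earlier results of these data known. Genes named were those passing, the brightest and dimmest, those on chromosomes 6, 13, 18 and 20, the MRPS18 paralogues, MRPS30 and MRPS36, and up to 2 rises and 2 falls of each other list. Further genes were named for their role after their values were seen. Alternatives were median centring, a second quantile normalization, a filter at the 25th percentile, every probe set tested, the mean of probe sets, an intensity trend, a replicate block, each array left out, and removal of the median of 15 or 30 neighbours either side. That median was subtracted as a fixed value, without its own uncertainty.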

Additional observations from a re-analysis of the deposited data

How the results depend on the processing

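Against 23 genes of the family that passed, the count was 8 when every probe set was tested on its own (5 large and 3 small subunit genes). That setting also left 0 of the other-named ribosomal proteins, 1 translation factor, 2 assembly factors, 1 RNA handling gene, 0 cytosolic ribosomal proteins, 3 immediate early genes, 2 myeloid markers and 0 markers of other cell types. With an array left out, 9 to 15 genes passed, 6 to 10 of the large and 3 to 5 of the small subunit, with medians of 0.349 to 0.382 and 0.312 to 0.408. The lists then gave 0 other-named proteins, 1 to 4 translation factors, 2 to 5 assembly factors, 0 to 1 cytosolic ribosomal proteins, 3 to 7 immediate early genes, 2 to 4 myeloid markers and 0 to 3 markers of other cell types. Fewer samples entered those fits. Median centring gave medians of 0.343 (large) and 0.342 (small) and 2 markers of other cell types. A second quantile normalization gave 0.359 and 0.35. The mean of probe sets left 0 markers of other cell types, and the intensity trend gave 3 cytosolic ribosomal proteins. Removing the regional shift gave medians of 0.428 and 0.334, with 2 other-named proteins, 4 assembly factors, 0 cytosolic ribosomal proteins and 3 immediate early genes. With 30 neighbours these counts were 4, 0 and 3 for the last 3 lists, and the small subunit median was 0.34.

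The labels number the replicates alike in both lines without saying that a number marks a shared batch, and the replicate differences of the lines correlated at 0.262 across genes. With the number as a replicate block, 31 genes of the family passed, with 8 tRNA synthetases and 2 markers of other cell types.

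Among the named genes of the family, direction turned in these alternatives only for genes that had not passed. MRPL14 stood at -0.030 with centring, -0.0062 with quantile normalization and between -0.0043 and 0.015 with an array left out. With an array left out MRPL57 lay between -0.10 and 0.19, MRPS10 between -0.12 and 0.23, and MRPS11 between -0.0037 and 0.11. With the regional shift of 15 and of 30 neighbours removed, MRPL2 stood at 0.081 and 0.12, MRPS18A at 0.33 and 0.20, and MRPS30 at 0.071 and 0.059. The cause of these changes was not tested.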
